A study of Mus musculus with 6 samples.

Results

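The genes described here are 10 mouse genes for proteins that hold messenger RNA back from translation, or release it, in male germ cells: Dazl, Boll, Ybx1, Ybx2, Ybx3, Fxr1, Fmr1, Celf1, Prkra and Tarbp2. They were chosen by name from the 22770 gene rows of a count table, and all 10 were present and passed the filter on low counts. Polyadenylated RNA was measured by Smart-seq2 in round spermatids, the haploid cells that later elongate into sperm, sorted by fluorescence from testes of mice aged 28 days after birth and mostly at step 8 of their development. The 3 libraries of the genotype labelled Eif5a SKO (below SKO, an abbreviation that the labels do not expand) were compared with 3 wild-type (WT) libraries. The sources used here do not give how Eif5a was deleted or in which cells, the strain, or whether each library came from its own animals, so p-values measure the spread between these libraries.

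Spermatids make many of their messages days before the proteins are needed, because transcription stops as the nucleus condenses. The early messages are stored in particles with RNA-binding proteins and translated later, in elongating cells. Y-box proteins are abundant coats of such stored messages, DAZL and BOLL are germ cell RNA-binding proteins of the DAZ family, and the remaining proteins named above repress or activate stored messages or bind double-stranded RNA. EIF5A is a translation factor that helps ribosomes through stretches of a message that are slow to translate.

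Library totals ran from 52055193 to 60970931 counts. Eif5a itself stood at 6.88, 6.27 and 5.35 CPM in the SKO libraries, against 700.9, 616.4 and 661.7 CPM in the WT libraries, so the low and high libraries matched their labels. CPM, or counts relative to library size, were scaled between libraries by trimmed means of M-values (TMM). SKO replicate 3 stood apart from the other SKO libraries on the second principal component, at -39.7 against 22.3 and 21.7. The summed level of 10 round spermatid markers was 7689 to 8844 CPM in SKO and 5383 to 5976 CPM in WT, with 6 called higher and 1 lower. Summed levels of the 6 measured Sertoli cell markers were 47.0 to 174.7 CPM in SKO and 3.05 to 10.3 CPM in WT, with all 6 higher. The list held 12 markers, of which Sox9, Amh, Rhox5, Wt1, Gata4 and Fshr had no gene row. The 4 measured peritubular and stromal markers summed to 72.4 to 94.1 CPM in SKO and 8.79 to 28.6 CPM in WT, with 2 higher. The 6 Leydig markers summed to 8.02 to 44.6 CPM in SKO and 1.26 to 21.6 CPM in WT, with 3 higher. Ranges of the 6 macrophage and blood markers overlapped, at 15.3 to 31.8 CPM in SKO and 8.06 to 19.4 CPM in WT, while those of 2 endothelial markers did not, at 1.86 to 3.45 CPM in SKO and 5.55 to 6.68 CPM in WT. The other lists held 8 stromal, 8 Leydig, 8 macrophage and blood and 6 endothelial markers, and those not measured had no gene row. Cst12 (Sertoli) and Cyp11a1 (Leydig) were at 0 in WT replicate 1, and Insl3 (Leydig) and Cd68 (macrophage) in WT replicates 1 and 2. None of these measured markers was at 0 in all libraries of a group, and the part of such cells in the results below was not tested. In bulk libraries, a change in the share of a cell type and a change of RNA per cell cannot be told apart.

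Of the 10 genes, 2 were higher in SKO (Dazl and Fmr1), 2 were lower (Celf1 and Tarbp2) and 6 did not pass the test. The test was edgeR's quasi-likelihood test with Benjamini-Hochberg adjustment over 19776 genes, called at an adjusted p under 0.05. It called 42.0% of all genes tested, 21.2% higher and 20.9% lower, so the share of these genes that changed was close to that of the table as a whole. The SKO and WT values did not overlap for the same 4 genes, where 55.6% of all genes tested did not overlap. Higher calls among the 10 numbered 1 without SKO replicate 1, SKO replicate 2, WT replicate 1 or WT replicate 3, and 4 without SKO replicate 3. The median log2 fold change was 0.21 over the 10 genes and 0.01 over all genes tested. For the 10 genes it was 0.094 without SKO replicate 1 and 0.15 without WT replicate 2, and under library totals it was -0.024, where that of all genes was -0.23.

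**Figure D1:**
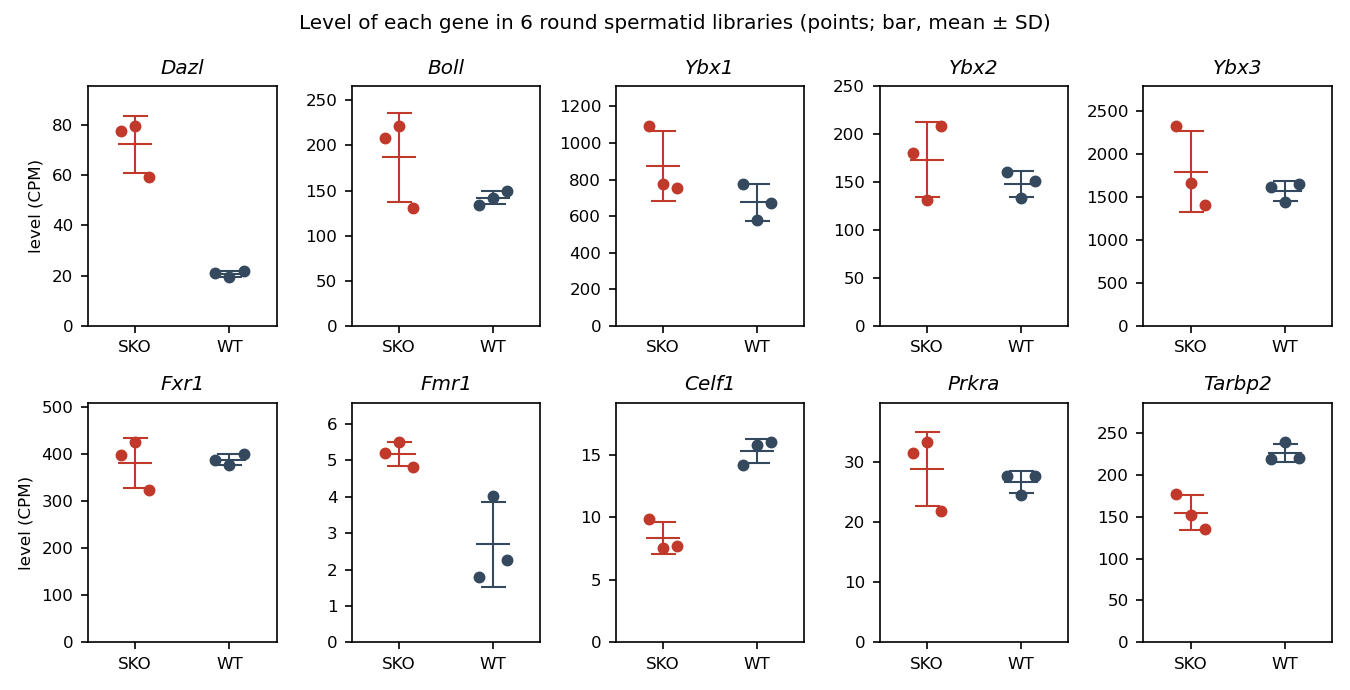
Level of each of the 10 genes in CPM (vertical axes, each from 0) in the 3 SKO and the 3 WT libraries; points are libraries and bars are mean ± SD. The SKO points lie wholly above the WT points for Dazl and Fmr1, wholly below them for Celf1 and Tarbp2, and overlap them for the other genes.

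Of the 10 genes, Dazl showed the largest change. DAZL binds the 3′ ends of messages in germ cells from the embryo to meiosis and mostly promotes their translation. Dazl stood at 77.7, 79.6 and 59.4 CPM in the SKO libraries, against 21.1, 19.4 and 21.8 CPM in the WT libraries. All SKO values were far above all WT values, and the lowest was that of SKO replicate 3. It rose 3.48-fold (95% interval 2.71 to 4.46), or 1.80 ± 0.16 in log2 (SE; edgeR adjusted p = 5.77e-05). Dazl is at chr17:50279395-50293636, minus strand (GRCm38). Under all 18 alternative settings the rise was called, with log2 fold changes of 1.44 to 1.89.

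Boll (chr1:55248658-55363469, minus strand), whose loss in mice stops sperm development at the round spermatid stage, did not pass the test. Its level was 208.4, 221.6 and 130.8 CPM in the SKO libraries, against 134.5, 142.2 and 149.1 CPM in the WT libraries. SKO replicates 1 and 2 were above every WT library, while SKO replicate 3 was below every one. The log2 fold change was 0.40 ± 0.19 (edgeR adjusted p = 0.12), with a 95% interval of -0.03 to 0.82. Without SKO replicate 3 it was 0.57, which passed the test (edgeR adjusted p = 0.000949), and without SKO replicate 2 it was 0.23 (edgeR adjusted p = 0.409). The correction for transcript length and GC content gave -0.07, but it rested on an annotated transcript of 882 bases, out of 3514 exonic bases of the gene.

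The upstream sequences of Dazl and Boll are shown because Dazl passed the test and its relative Boll did not. Each run is the 250 bases before an annotated start, from RefSeq (GRCm38.p6), with matches to CCAAT (either strand, so also ATTGG), to the Y-box CTGATTGG (also CCAATCAG) and to the TGACG core of the cyclic AMP response element (also CGTCA) in capitals. The Dazl run is chr17:50293621-50293870, minus strand. The Boll run is chr1:55362729-55362978, minus strand, the start of the 2 listed for Boll whose upstream sequence held a match.
Dazl: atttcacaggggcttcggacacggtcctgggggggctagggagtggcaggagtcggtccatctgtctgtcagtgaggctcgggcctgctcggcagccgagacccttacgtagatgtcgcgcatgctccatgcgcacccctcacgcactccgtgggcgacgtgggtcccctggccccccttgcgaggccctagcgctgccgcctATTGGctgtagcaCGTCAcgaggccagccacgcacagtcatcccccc
Boll: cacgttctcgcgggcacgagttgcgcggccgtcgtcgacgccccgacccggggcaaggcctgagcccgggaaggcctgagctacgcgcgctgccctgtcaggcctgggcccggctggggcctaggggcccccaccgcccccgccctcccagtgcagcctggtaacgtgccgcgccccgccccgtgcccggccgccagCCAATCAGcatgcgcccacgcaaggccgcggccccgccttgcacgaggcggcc
The Dazl sequence held ATTGG from base -47 and CGTCA from base -34, counted from the annotated start, and no Y-box. In the Boll sequence the CCAAT from base -53 was part of a Y-box. The other Boll start held no match, and the one shown was chosen for its match, so the shares below cannot weigh it. Among 32851 promoters of the same length, 33.9% held CCAAT, 3.83% the Y-box and 17.8% TGACG on either strand. No match says anything of a factor's binding.

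Within each library the ratio of Dazl to Boll counts can be read without any scaling between libraries. Its log2 value was -1.42, -1.48 and -1.14 in SKO and -2.67, -2.88 and -2.78 in WT. The groups did not overlap, and the mean difference was 1.43, or 2.69-fold. With 3 libraries against 3 the exact permutation test, two-sided, cannot go below p = 0.1, which it gave here (p = 0.167 after adjustment over 5 ratios).

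Among 4 measured messages that DAZL is known to bind in mice, 1 was higher and 0 lower, against 21.2% higher over all genes tested, and the median log2 fold change was 0.15. The sign of that median turned under library totals (-0.10), with the length and GC correction (-0.14, with 1 higher and 1 lower) and without SKO replicate 2 (-0.020). Sycp3, for a protein of the meiotic chromosome axis, rose to 143.8 ± 18.1 CPM in SKO, against 40.6 ± 6.05 CPM in WT (SD, n = 3 each), which is 1.82 ± 0.16 as a log2 fold change (edgeR adjusted p = 5.77e-05). Ddx4, a germ cell RNA helicase gene, averaged 894.9 CPM in SKO and 1066 CPM in WT and did not pass the test. Sycp1 averaged 72.9 CPM in SKO and 70.0 CPM in WT, and Tex11 5.80 CPM in SKO and 4.93 CPM in WT, both without a call.

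Markers of leptotene and zygotene spermatocytes, cells in which Dazl is also active, summed to 299.4 to 395.4 CPM in SKO and 247.8 to 287.8 CPM in WT. Of 9 measured, 2 were higher and 3 lower. Without Sycp3 the sums were 171.1 to 231.6 CPM in SKO and 214.1 to 242.6 CPM in WT, so the groups then overlapped. Leaving out Sycp3 was not planned, and it was the marker of the list with the largest rise. The overlap therefore cannot weigh the share of these cells. Of the 8 markers left, 1 was higher (Dmc1, 1.39 CPM in SKO and 0.47 CPM in WT) and 3 were lower. The most abundant of those lower was Spo11, at 62.3 CPM in SKO and 102.9 CPM in WT. Later spermatocyte markers summed to 3099 to 4072 CPM in SKO and 3259 to 3285 CPM in WT, with 2 of 10 higher and 2 lower. Spermatogonial markers summed to 28.0 to 29.4 CPM in SKO and 30.9 to 34.97 CPM in WT, with 0 of 7 higher and 2 lower. The part of earlier germ cells in the rise of Dazl was not tested.

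The genes whose pattern over the 6 libraries was most like that of Dazl were Speer4a, Nmnat3 and Actrt1. Likeness was the root mean square distance of mean-centred log2 CPM among 7704 other named genes of at least 5 CPM. The distance was 0.081 for Speer4a, a spermatid gene of a multicopy family, 0.086 for Nmnat3, which encodes an enzyme of NAD synthesis, and 0.095 for X-linked Actrt1, an actin-related gene of the sperm head. Nmnat3 averaged 174.2 ± 17.5 CPM in SKO and 47.8 ± 0.24 CPM in WT (SD, n = 3 each). Reads shared between Speer copies make the value of Speer4a uncertain.

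None of the Y-box genes passed the test. Per kilobase of annotated exon they were the most abundant of the 10: Ybx3 led with 585.2 ± 155.2 CPM per kb in SKO and 511 ± 36.9 in WT, followed by Ybx1 with 345.2 ± 75.02 in SKO and 266.6 ± 39.0 in WT, and Ybx2 with 92.0 ± 20.6 in SKO and 78.6 ± 7.31 in WT (SD, n = 3 each). The spacing between these ranks exceeded the spread within each group. By length of the longest coding transcript Ybx2 ranked behind Boll and Fxr1 in both groups and behind Tarbp2 in WT. That transcript held 882 of 3514 exonic bases for Boll, 2459 of 6553 for Fxr1 and 1523 of 4549 for Tarbp2. For Ybx2 it held 1673 of 1885.

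Ybx2, known as MSY2, is confined to germ cells, coats stored messages and is required for male fertility in mice. It is at chr11:69935796-69941605, plus strand, with its start 13.8 kb from the start of Eif5a and no annotated gene between them. Its level was 180.1, 131.8 and 208.6 CPM in the SKO libraries, against 160.1, 133.1 and 151.3 CPM in the WT libraries. The groups overlapped, and SKO was higher by 0.23 ± 0.17 in log2, with a 95% interval of -0.16 to 0.62 (edgeR adjusted p = 0.325). As a ratio of SKO to WT, that interval ran from 0.893 to 1.54. The difference was 0.040 without SKO replicate 3 and 0.37 without SKO replicate 2, neither with a call.

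Ybx3 (chr6:131364855-131388476, minus strand), known as MSY4, binds the same kind of message together with YBX2. It stood at 2330, 1662 and 1406 CPM in the SKO libraries, against 1619, 1442 and 1653 CPM in the WT libraries. SKO replicate 1 was the highest and SKO replicate 3 the lowest of all 6. Its log2 fold change was 0.20 ± 0.18 (edgeR adjusted p = 0.414; 95% interval -0.21 to 0.60), and it was -0.055 without SKO replicate 1.

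Ybx1 (chr4:119277981-119294604, minus strand), or YB-1, is expressed in most cell types. It stood at 1093, 774.4 and 754.2 CPM in the SKO libraries, against 776.1, 578.9 and 669.5 CPM in the WT libraries. The groups overlapped through WT replicate 1 alone. Its change was 0.37 ± 0.17 on the log2 scale (edgeR adjusted p = 0.115; 95% interval -0.02 to 0.76), and without SKO replicate 3 it was 0.43 and passed the test (edgeR adjusted p = 0.0354). Without SKO replicate 1 it was 0.16 (edgeR adjusted p = 0.417). Ybx1 has processed pseudogenes of which Gm11560 is 96.1% identical over 932 bases. Its counts, 421 to 652 in SKO and 379 to 526 in WT, were a small addition to the 38091 to 52905 counts of Ybx1 in SKO and 33960 to 45559 in WT. Adding the copies left the log2 fold change at 0.37.

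All 3 Y-box genes passed the test, as higher, when a per-library correction for transcript length and GC content was applied: 0.44 for Ybx1, 0.59 for Ybx2 and 0.52 for Ybx3 (edgeR adjusted p = 0.0426, 0.00298 and 0.0346). It rested on transcripts of 1628, 1673 and 1853 bases, out of 2531, 1885 and 3075 exonic bases. The correction was fitted over the tested genes themselves, so it can also take out real changes that follow length or GC content. Scaling by library totals alone gave -0.00040 for Ybx2 and -0.048 for Ybx3. Ybx1 stayed higher under library totals, at 0.13, without a call.

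Within the Y-box family the shares of the summed level per kilobase overlapped between the groups. Ybx1 held 33.6%, 33.39% and 34.4% in SKO, against 33.4%, 29.8% and 29.97% in WT, an overlap through WT replicate 1 alone. Ybx3 held 58.97%, 58.98% and 52.8% of the summed level in SKO, against 57.4%, 61.03% and 60.9% in WT. Ybx2 held 7.44%, 7.63% and 12.8% in SKO, against 9.25%, 9.19% and 9.10% in WT. Its share was thus highest in SKO replicate 3 and lowest in the other SKO libraries. Exact permutation tests, on both sides, of the log2 count ratios gave p = 0.5 for Ybx1 to Ybx2 (difference 0.16) and p = 1 for Ybx3 to Ybx2 (difference -0.041). The smallest p this design allows is 0.1, so these tests could not have called a difference.

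**Figure D2:**
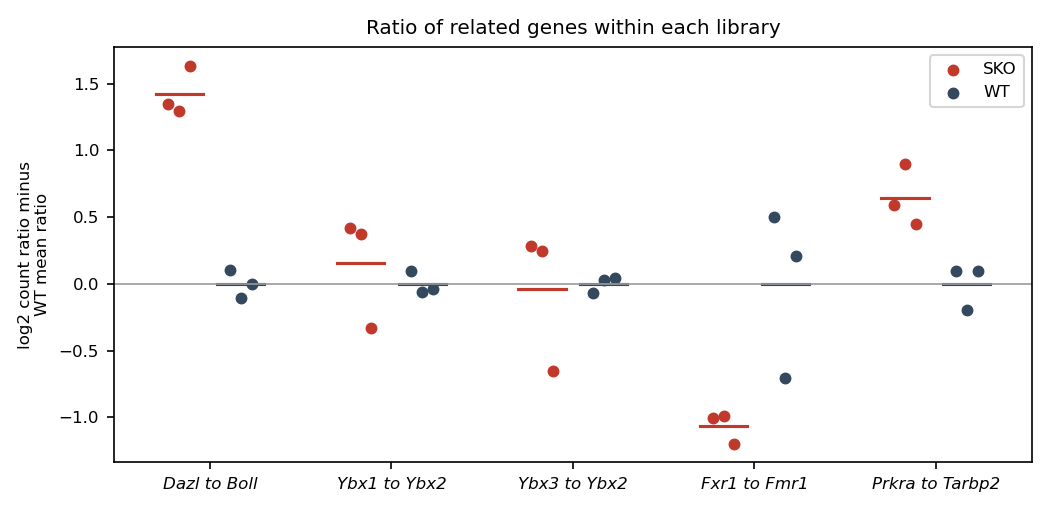
Log2 ratio of the counts of 5 pairs of related genes within each library, minus the mean WT ratio of that pair (vertical axis); points are libraries and short lines are group means. SKO and WT points are separate for Dazl to Boll, Fxr1 to Fmr1 and Prkra to Tarbp2, and overlap for both Y-box pairs, where SKO replicate 3 lies below the other SKO libraries.

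Y-box proteins of mouse spermatids bind a short recognition sequence in the 3′ UTR of Prm1, and the heptamer TCCATCA of that message was looked for in other 3′ UTRs on the transcript strand. For each gene only the transcript of longest coding sequence was searched, and that of Boll has no annotated 3′ UTR. Among the 13 stored spermatid messages listed for this purpose the heptamer stood in Prm1 (chr16:10796450-10796476, minus strand) and Acr (chr15:89574521-89574547, plus strand). Among the 9 of the 10 genes whose searched transcript has a 3′ UTR it stood in Ybx3 itself (chr6:131365210-131365236, minus strand). These windows from the GENCODE M21 transcripts (GRCm38) are shown with the heptamer in capitals because they hold the letters that Y-box proteins recognise in Prm1.
Prm1: gaatagcaagTCCATCAaaactcctgc
Acr: caaatcttccTCCATCAaatttacatc
Ybx3: ccagcaagtgTCCATCAagctgtatcc
The heptamer begins at base 18 of the 3′ UTR in Prm1, base 103 in Acr and base 213 in Ybx3. It was found in 8.85% of the 3′ UTRs of 12905 tested genes, whose median length was 788 bases, against 158 bases for the stored messages. A match in these letters is no evidence of binding.

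Messages stored in spermatids, such as those of the protamines, were more often higher than lower. Of 13 tested, 8 were higher and 0 lower in SKO, with a median log2 fold change of 0.68, against 21.2% higher and a median of 0.01 over all genes tested. Prm1, for protamine 1, stood at 524.6, 556.8 and 782.1 CPM in SKO and 390.5, 342.2 and 394.2 CPM in WT, and rose by 0.73 on the log2 scale (edgeR adjusted p = 0.00662), a call that ended with the length and GC correction (0.072). Acr, for the acrosomal protease acrosin, averaged 913.0 CPM in SKO and 876.0 CPM in WT and did not pass. Ldhc, for the germ cell lactate dehydrogenase, a protein made from meiosis on, rose to 11859 ± 785.3 CPM in SKO, against 7287 ± 95.7 CPM in WT, and Gapdhs, for the sperm form of a glycolytic enzyme, to 77.6 ± 35.5 CPM, against 30.0 ± 3.71 CPM (SD, n = 3 each; edgeR adjusted p = 0.00116 and 0.00354). With the length and GC correction the list had 4 higher and 0 lower, and a median of 0.24. Under library totals alone it had 5 higher and 0 lower, and a median of 0.44. Without WT replicate 2 it had 5 higher, and without SKO replicate 3 it had 9 higher and a median of 0.44. Elongating spermatid markers summed to 6243 to 6767 CPM in SKO and 3907 to 4453 CPM in WT. Most of them are also on the list of stored messages: Prm1, Prm2, Tnp1, Tnp2, Odf1, Smcp and Gapdhs. Their sum is thus no separate reading of later cells, whose part was not tested.

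Among the fragile X family, Fmr1 rose, and neither Fxr1 nor its paralog Fxr2 passed the test. Fxr2 stood at 3.718, 4.175 and 11.76 CPM in the SKO libraries, against 6.269, 4.585 and 5.386 CPM in the WT libraries (edgeR adjusted p = 0.615). Its higher SKO mean, 6.55 CPM against 5.41 CPM in WT, came from SKO replicate 3 alone. FXR1 is known in mouse spermatids as an activator of stored messages, and FMR1, a repressor of translation best known in neurons, also acts in the testis. Fxr1 (chr3:34019943-34070322, plus strand) stood at 398.3, 425.3 and 323.4 CPM in the SKO libraries, against 387.8, 378.1 and 400.5 CPM in the WT libraries. The SKO values lay on both sides of the WT values. On the log2 scale the fold change was -0.024 ± 0.13 (edgeR adjusted p = 0.902), and the 95% interval of -0.32 to 0.28 bounds the ratio of SKO to WT between 0.799 and 1.21.

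Fmr1 was the least abundant of the 10 in CPM, with 252, 296 and 244 counts in the SKO libraries and 105, 236 and 141 in the WT libraries. These correspond to 5.21, 5.49 and 4.83 CPM in SKO and 1.79, 4.02 and 2.26 CPM in WT. The SKO values lay close together, whereas WT replicate 2 was well above the other WT libraries. The log2 fold change was 0.94 ± 0.30 (edgeR adjusted p = 0.0306). The call ended without SKO replicate 1, SKO replicate 2, WT replicate 1 or WT replicate 3 (edgeR adjusted p = 0.0771, 0.0945, 0.103 and 0.101), under library totals (0.0927) and with the length and GC correction (0.105). For Fmr1 that correction rested on an annotated transcript of 4199 bases, out of 8966 exonic bases. Without WT replicate 2 the log2 fold change was 1.35 (edgeR adjusted p = 0.00689). Fmr1 is X-linked (chrX:68678541-68717963, plus strand), and 63.4% of the 740 X-linked genes tested were higher, with a median of 1.31. Its value was therefore below the X-linked median.

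The log2 ratio of Fxr1 to Fmr1 counts was 6.26, 6.28 and 6.07 in SKO and 7.76, 6.55 and 7.47 in WT. The mean difference was -1.06, and the groups did not overlap (two-sided exact permutation test, p = 0.1, the smallest possible; 0.167 adjusted over 5 ratios).

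Celf1 (chr2:90940382-91019497, plus strand) fell. CELF1 binds GU-rich sites in messages, promotes their decay and is needed for sperm development in mice. It stood at 9.83, 7.51 and 7.72 CPM in the SKO libraries, against 14.2, 15.8 and 15.98 CPM in the WT libraries. No SKO value reached the lowest WT value. The log2 fold change was -0.87 ± 0.17 (edgeR adjusted p = 0.003), a level of 0.545 of WT with a 95% interval of 0.418 to 0.711. It was called under all 18 alternative settings, at -1.11 to -0.82. Of the other CELF genes, all 5 measured had low to moderate levels and none was called, with Celf3 the most abundant at 25.6 CPM in SKO and 27.5 CPM in WT.

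Of the double-stranded RNA-binding genes, Tarbp2 fell and Prkra did not pass the test. Both proteins are partners of the miRNA-processing enzyme Dicer with opposite effects on the kinase PKR. Mouse TARBP2 was also described as a protein that binds protamine messages and is needed for their translation. Tarbp2 (chr15:102518192-102523676, plus strand) stood at 177.2, 151.4 and 135.6 CPM in the SKO libraries, against 219.2, 238.3 and 220.3 CPM in the WT libraries. The groups did not overlap. In log2 terms the fold change was -0.55 ± 0.14 (edgeR adjusted p = 0.0101), a level of 0.685 of WT (95% interval 0.554 to 0.846). The length and GC correction gave -0.35 and ended the call (edgeR adjusted p = 0.0577). It rested on an annotated transcript of 1523 bases, out of 4549 exonic bases of Tarbp2.

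Prkra (chr2:76629898-76648015, minus strand), which encodes the PKR activator PACT, stood at 31.4, 33.2 and 21.7 CPM in the SKO libraries, against 27.6, 24.5 and 27.6 CPM in the WT libraries. SKO replicates 1 and 2 were above and SKO replicate 3 below every WT value. For Prkra the log2 fold change was 0.12 ± 0.18 (edgeR adjusted p = 0.645; 95% interval -0.29 to 0.52). The log2 ratio of Prkra to Tarbp2 counts was -2.50, -2.19 and -2.64 in SKO and -2.99, -3.28 and -3.00 in WT. The SKO ratios were all higher, by 0.65 on average (two-sided exact permutation test, p = 0.1, the smallest possible; 0.167 adjusted over 5 ratios).

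**Figure D3:**
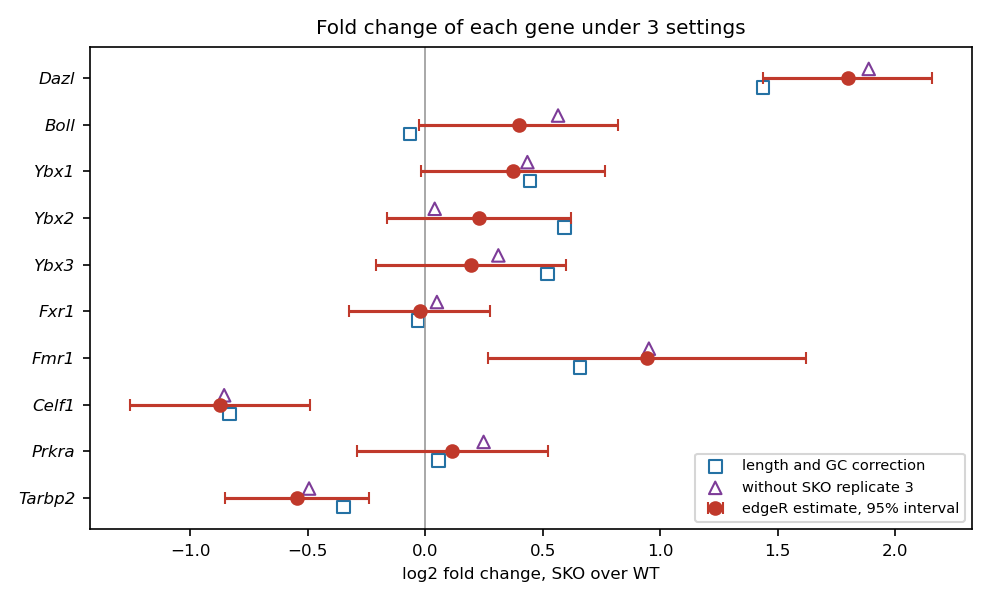
Log2 fold change, SKO over WT (horizontal axis), of each gene with its 95% interval from edgeR (circles), with the length and GC correction (squares) and without SKO replicate 3 (triangles). Dazl at 1.80 and Celf1 at -0.87 keep their distance from 0 under all 3, while the Y-box genes move upward with the correction.

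Library by library, the SKO spread of the 10 genes was wide. SKO replicate 3 had the lowest SKO value for 8 of the 10 genes, where this held for 38.2% of all genes tested. The SD was larger in SKO than in WT for 9 of the 10 genes, Fmr1 being the exception, and for 65.3% of all genes tested. In order of level per kilobase of annotated exon, Ybx3, Ybx1, Ybx2 and Fxr1 led in both groups. Boll at 53.2 ± 14.0 and Fxr1 at 58.3 ± 8.06 CPM per kb in SKO did not differ beyond their spread. By length of the longest coding transcript Boll instead had rank 3 and Fxr1 rank 4 in both groups. That transcript held only 882 of 3514 exonic bases for Boll and 2459 of 6553 for Fxr1, so these ranks depend on the annotation. The ranks that follow use annotated exon. Tarbp2 had rank 6 with 34.01 ± 4.62 in SKO and rank 5 with 49.7 ± 2.36 in WT. Dazl had rank 7 with 18.9 ± 2.92 in SKO and rank 8 with 5.44 ± 0.33 in WT, and Prkra rank 8 with 14.2 ± 3.03 in SKO and rank 7 with 13.1 ± 0.89 in WT. Celf1 and Fmr1 came last, at 0.989 ± 0.15 and 0.577 ± 0.037 CPM per kb in SKO and 1.81 ± 0.11 and 0.3001 ± 0.13 in WT (SD, n = 3 each).

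Other genes of translational control were read from 7 lists, which with their overlaps removed held 107 tested genes. The test called 22 of them higher and 15 lower, and their median log2 fold change was 0.02, against 21.2% higher, 20.9% lower and a median of 0.01 over all genes tested. Lower calls numbered 22 without SKO replicate 3 and 9 without WT replicate 2 or WT replicate 3.

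Genes for poly(A)-binding proteins and cap-binding repressors had 5 of 13 higher and 1 lower, with a median of 0.36. Pabpc1, for the main cytoplasmic poly(A)-binding protein, stood at 1397, 1305 and 1549 CPM in SKO and 836.6, 829.7 and 778.6 CPM in WT, which is 0.80 ± 0.12 as a log2 fold change (edgeR adjusted p = 0.000745). Paip2, for an inhibitor of that protein, rose by 0.79 ± 0.13 (edgeR adjusted p = 0.0011). Gigyf2, for a cap-binding repressor partner, fell by 0.62 on the log2 scale (edgeR adjusted p = 0.0331), a call that ended with the length and GC correction and without SKO replicate 1, SKO replicate 2, WT replicate 2 or WT replicate 3. Under library totals the list had 5 higher and 3 lower and a median of 0.12, and without SKO replicate 3 it had 5 higher and 2 lower and a median of 0.12.

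Genes for CPEB proteins and poly(A) tail factors had 2 of 17 higher and 3 lower, with a median of -0.18. Lower calls numbered 2 without WT replicate 1 and without WT replicate 3, where 1 gene was higher, and the median was -0.29 without SKO replicate 1. Library totals gave 1 higher and 5 lower. Cpeb2 stood at 120.1, 116.5 and 203.8 CPM in SKO and 93.5, 79.2 and 62.2 CPM in WT and rose by 0.91 ± 0.24, whereas Cpeb3 stood at 3.80, 4.79 and 5.11 CPM in SKO and 11.3, 11.4 and 10.3 CPM in WT and fell by 1.27 in log2 (edgeR adjusted p = 0.0124 and 0.000624). Both encode proteins that bind a U-rich element in the 3′ UTR of stored messages. Tob1, an antiproliferative gene whose protein recruits deadenylases, rose by 1.14 ± 0.17, and Parn, a deadenylase gene, fell by 0.86 in log2 (edgeR adjusted p = 0.000665 and 0.00805). The call of Cpeb2 ended under library totals and without WT replicate 3.

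Stored-message particles and P-bodies had 3 of 19 genes higher and 4 lower (median -0.06). Leaving out 1 library gave 0 to 2 higher and 2 to 4 lower. Tsnax, for the partner of the germ cell RNA-binding protein translin, stood at 19.9, 14.3 and 12.4 CPM in SKO and 32.6, 44.3 and 32.0 CPM in WT, which is -1.22 ± 0.21 as a log2 fold change (edgeR adjusted p = 0.00166). Edc3, for a scaffold of the decapping complex, fell by 0.85 on the log2 scale. Ddx25, for a testis RNA helicase that carries messages to the cytoplasm, rose by 0.45 ± 0.15 and Tial1, for a stress granule protein, by 0.59 ± 0.16 (edgeR adjusted p = 0.039 and 0.0168). Both rises ended under library totals, where the list had 0 higher and 4 lower. That of Ddx25 also ended with the replicate block and without any 1 library other than SKO replicate 3, and that of Tial1 without SKO replicate 2, WT replicate 2 or WT replicate 3.

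Further RNA-binding genes had 2 of 24 higher and 3 lower (median -0.04). Pum2, for a repressor that binds 3′ UTRs, rose to 31.1 ± 5.65 CPM in SKO, against 14.8 ± 1.18 CPM in WT, and Qk, for an RNA-binding protein of splicing and stability, to 77.6 ± 4.12 CPM, against 49.0 ± 2.07 CPM (SD, n = 3 each; edgeR adjusted p = 0.00104 and 0.00272). Ptbp1, for a splicing repressor, stood at 17.1, 10.4 and 7.03 CPM in SKO and 29.2, 39.1 and 29.7 CPM in WT and fell by 1.51 on the log2 scale, and Igf2bp3 fell by 0.61 (edgeR adjusted p = 0.00285 and 0.00755). Without SKO replicate 3 this list had 5 higher and 6 lower (median -0.14), and with the length and GC correction 5 higher and 2 lower (median 0.13).

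Double-stranded RNA-binding proteins and Dicer partners had 1 of 18 genes higher and 4 lower (median -0.16). Lower calls numbered 2 without SKO replicate 2 or WT replicate 2, and without SKO replicate 3 the list had 2 higher and 6 lower (median -0.30). Higher calls numbered 2 without WT replicate 2 and 0 without WT replicate 1 or WT replicate 3. Eif2ak2, which encodes PKR, stood at 4.03, 3.56 and 2.04 CPM in SKO and 6.81, 9.89 and 8.37 CPM in WT, which is -1.38 ± 0.28 as a log2 fold change (edgeR adjusted p = 0.00341). Adarb1, for an RNA-editing enzyme, fell by 0.95 on the log2 scale, and Tnrc6c, for a partner of Argonaute proteins, rose by 0.75 ± 0.21 (edgeR adjusted p = 0.0118 and 0.0167). The rise of Tnrc6c ended under library totals and without WT replicate 1 or WT replicate 3.

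**Figure D4:**
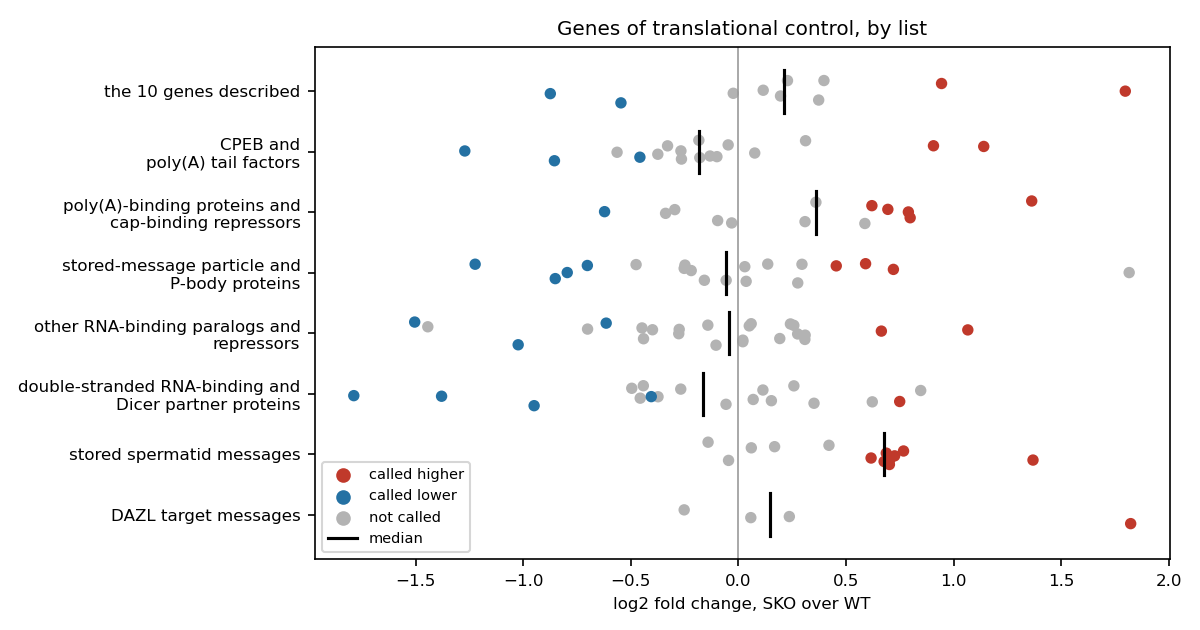
Log2 fold change, SKO over WT (horizontal axis), of every tested gene in the 10 genes described here and in 7 lists of translational control, one row per list; points are genes, coloured by call, and black bars are list medians. The stored spermatid messages have 8 of 13 points called higher and a median of 0.68. The other lists hold calls in both directions or a single call. All lists were chosen with earlier results of these data known.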

How the data were processed

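Counts per gene of 3 SKO and 3 WT libraries were deposited by the authors as raw counts, with no normalization. The tools were HISAT2 2.0.5, featureCounts 1.5.0-p3 of Subread, Trim Galore 0.6.4 and FastQC, on GRCm38 (mm10), per the submitters' processing notes. Gene annotation, strand setting and handling of multi-mapped reads are not stated there, so overlapping genes and copies can share reads. Columns were matched to labelled samples by genotype and replicate number. The columns taken as SKO were named cKO with the replicate number, a prefix that differs from that of the labels. Smart-seq2 counts carry no molecular identifiers, and intervals do not cover amplification bias shared by the libraries of a group.

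The whole table was fitted in R 4.3.3 with edgeR 4.0.16, using filterByExpr defaults (counts of 10 and 15), TMM factors, the group alone in the model and adjustment over 19776 genes. SE values were derived from the F statistic, and 95% intervals use the test's degrees of freedom. Scripts were tested on simulated data. Gene lengths, GC content and overlaps came from GENCODE M21, which named 22023 of the 22770 rows. Levels per kilobase use all annotated exon bases. Near-identical copies are annotated transcripts at 90% identity over 200 bases or more, found with blastn.

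All 10 genes were named. Each list gave at most 2 named genes per direction of call, those of lowest adjusted p, and further members are given as context chosen after their values were seen. The genes and lists were chosen with earlier results of these data known. Alternatives were other scaling factors, filters, thresholds and tools (DESeq2 1.42.0; limma-voom, limma 3.58.1), a loess correction for length and GC content, the replicate number as a block and each library left out. Summing copies and leaving out sex-linked genes were added after seeing the data. List genes absent from the table were not analysed here.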

Additional observations from a re-analysis of the deposited data

How the results depend on the processing

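Of 197 values for Eif5a and the 10 genes under alternative settings, 173 had the direction and the call reported, 9 lost a call, 5 gained one and 10 turned their sign, all of these for genes that were not called. The sign turned for Boll with the length and GC correction (-0.065), for Ybx2 (-0.00040), Ybx3 (-0.048) and Prkra (-0.13) under library totals alone, for Ybx3 without SKO replicate 1 (-0.055; 0.31 at most with a library left out), for Prkra without SKO replicate 2 (-0.030; at most 0.25), and for Fxr1 with upper quartile factors (0.0096), with a filter of 5 CPM in 3 libraries (0.00098), without SKO replicate 3 (0.049; at least -0.14) and without sex-linked genes (0.035). The cause was not tested. Of the 10 genes, 1 was higher under library totals, 1 with the 5 CPM filter, which removed Fmr1, and 1 at an adjusted p under 0.01, 4 with the length and GC correction, and 1 to 4 with a library left out. Lower calls numbered 1 at an adjusted p under 0.01 and 1 with the correction, and 2 with any library left out. Over all genes tested, 4185 were higher and 4127 lower; these became 2611 and 2553 at an adjusted p under 0.01, and the lower calls 2742 with the 5 CPM filter. Library totals alone gave 2831 higher and 5666 lower, as they moved the median of all genes to -0.23, against 0.01. List genes numbered 14 higher and 23 lower under library totals, 14 and 7 at an adjusted p under 0.01, and 16 to 26 and 9 to 22 with a library left out. The length and GC correction moved the ratio difference of Ybx1 to Ybx2 to -0.16 and that of Prkra to Tarbp2 to 0.40. Same-numbered libraries did not deviate together (r of -0.063, -0.13 and -0.086), and none correlated best with its own number. With the replicate number as a block, 3552 genes were higher and 3666 lower, 2 of the 10 genes were higher and 2 lower, and list genes numbered 21 and 12; the ratio differences do not change under this pairing. Fmr1 had the lowest counts of the 10 genes, 244 to 296 in SKO and 105 to 236 in WT.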

Other observations

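A processed pseudogene of Tarbp2, Gm18584, is 99.3% identical to it over 603 bases and had 189, 188 and 136 counts in the SKO libraries, against 237, 326 and 300 in the WT libraries. Summing it with Tarbp2 left the log2 fold change at -0.55 (edgeR adjusted p = 0.0103). Reads of Fxr1 and Dnajc19, on opposite strands, can overlap over 178 exonic bases, or 2.7% of the exonic bases of Fxr1.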
